A study of Mus musculus with 6 samples.

Results

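The genes described here drive the entry of a cell into S phase and the copying of its DNA. They were 41 genes chosen by symbol, with earlier results of these data known. All 41 were found among the 28154 genes of the deposited table. Their roles divide them into 9 cyclins, cyclin-dependent kinases and E2F factors, 16 genes of origin licensing and the helicase, 11 genes of the replication fork, and 5 genes that supply nucleotides or process histone mRNA. They were measured in the mouse mammary carcinoma line 4T1 by RNA sequencing, in 3 control libraries and 3 libraries from cells treated with corticosterone, the main glucocorticoid of rodents. All 6 libraries came from the same cell line, with no genetic change named for either group. The sources used here do not give the dose, the length of treatment or whether replicates came from separate cultures, so the p-values measure only the spread between these libraries.

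Cells leave G1 when D-type cyclins with CDK4 or CDK6, and then cyclin E with CDK2, phosphorylate the retinoblastoma protein and free the E2F factors that switch on replication genes. Before S phase, the origin recognition complex, CDC6 and CDT1 load the MCM2 to MCM7 ring onto DNA, which is called licensing. CDC45 and the GINS complex then turn the ring into an active helicase, and polymerases, the PCNA clamp and its loader copy the strands while ribonucleotide reductase, thymidylate synthase and thymidine kinase supply deoxynucleotides.

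Because many of these genes are known targets of E2F, promoter sequences are shown first. RefSeq windows (mouse build GRCm38.p6) from 250 bases before to 50 bases after the gene start were found for 35 of the 41 genes. The motifs searched were TTTCCCGC, TTTCGCGC, TTTGCCGC and TTTGGCGC on both strands. Where TTTGGCGC runs into GCGCGAAA, the reverse complement of TTTCGCGC, the matches overlap. At least 1 match, in any window of the gene, was found in 16 of the 35 genes (45.7%). This was so for 4.47% of the 11353 tested genes with a window and 2.6% of all 27025 genes with one. Counted by window and not by gene, the share was 2.26% of all 32851 windows of this length. The 4 stretches with a match below are in capitals where they match, and lie outside annotated exons. Mcm5 and Mcm6 are 2 genes whose 3 treated libraries lay below all 3 controls, and E2f3 and Pola1 are 2 genes where the groups overlapped. E2f3 had 2 windows, and its stretch is from the one at 29986014 to 29986313, at another annotated start. The window at 29984342 to 29984641 holds the E2f3 start of the deposited table (29984391) and had 0 matches. Pcna is the 1 gene called by the edgeR test given below.
Mcm5, chr8:75109288-75109407, plus strand: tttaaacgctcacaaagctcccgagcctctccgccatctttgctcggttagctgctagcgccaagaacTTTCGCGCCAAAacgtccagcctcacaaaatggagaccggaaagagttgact
Mcm6, chr1:128359706-128359825, minus strand: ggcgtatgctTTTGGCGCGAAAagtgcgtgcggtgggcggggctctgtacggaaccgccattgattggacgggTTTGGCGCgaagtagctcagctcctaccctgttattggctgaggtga
E2f3, chr13:29986064-29986183, minus strand: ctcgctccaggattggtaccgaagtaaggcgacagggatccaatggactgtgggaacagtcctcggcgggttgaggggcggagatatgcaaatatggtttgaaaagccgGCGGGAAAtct
Pola1, chrX:93632246-93632365, minus strand: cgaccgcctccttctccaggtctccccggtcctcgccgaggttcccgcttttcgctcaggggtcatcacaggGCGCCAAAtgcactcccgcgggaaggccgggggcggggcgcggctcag
Pcna, chr2:132253315-132253356, minus strand, no match: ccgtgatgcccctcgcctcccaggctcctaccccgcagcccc
A match was found in 8 of 13 licensing genes, 5 of 10 fork genes, 3 of 7 cyclin, kinase and E2F genes and 0 of 5 nucleotide and histone genes. The share with a match was 8 of 20 among genes whose treated libraries lay below all controls and 8 of 15 among the others. A match describes these letters only.

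Against this background, the replication genes were slightly lower with corticosterone in most cases, and 1 of 41 passed the test. Pcna fell by 15.8%, 40 genes did not pass and 0 rose (edgeR quasi-likelihood test, Benjamini-Hochberg adjusted p under 0.05 over 17283 tested genes). Across all tested genes 1.46% were called lower and 1.35% higher. All 41 passed the filter on low counts. The log2 fold change was below 0 for 31 of 41 (50.0% of all tested genes) and above 0 for 10, with a median of -0.13 and a range from -0.46 to 0.10, beside a median of 9.6e-05 over all tested genes. In 20 of 41 (48.8%) all 3 treated libraries lay below all 3 controls, against 11.6% of all tested genes, and in 0 did they lie above, against 10.6%. An unadjusted p under 0.05 was reached by 18 in the lower direction (8.80% of all tested genes) and by 0 in the higher (8.23%). These shares describe a list chosen with earlier results of these data known. The differences were small: 39 of the 41 95% intervals of the log2 fold change lay within 0.5 of 0. In bulk RNA, fewer cells in a phase of the cycle and less of a transcript per cell cannot be told apart.

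**Figure D1:**
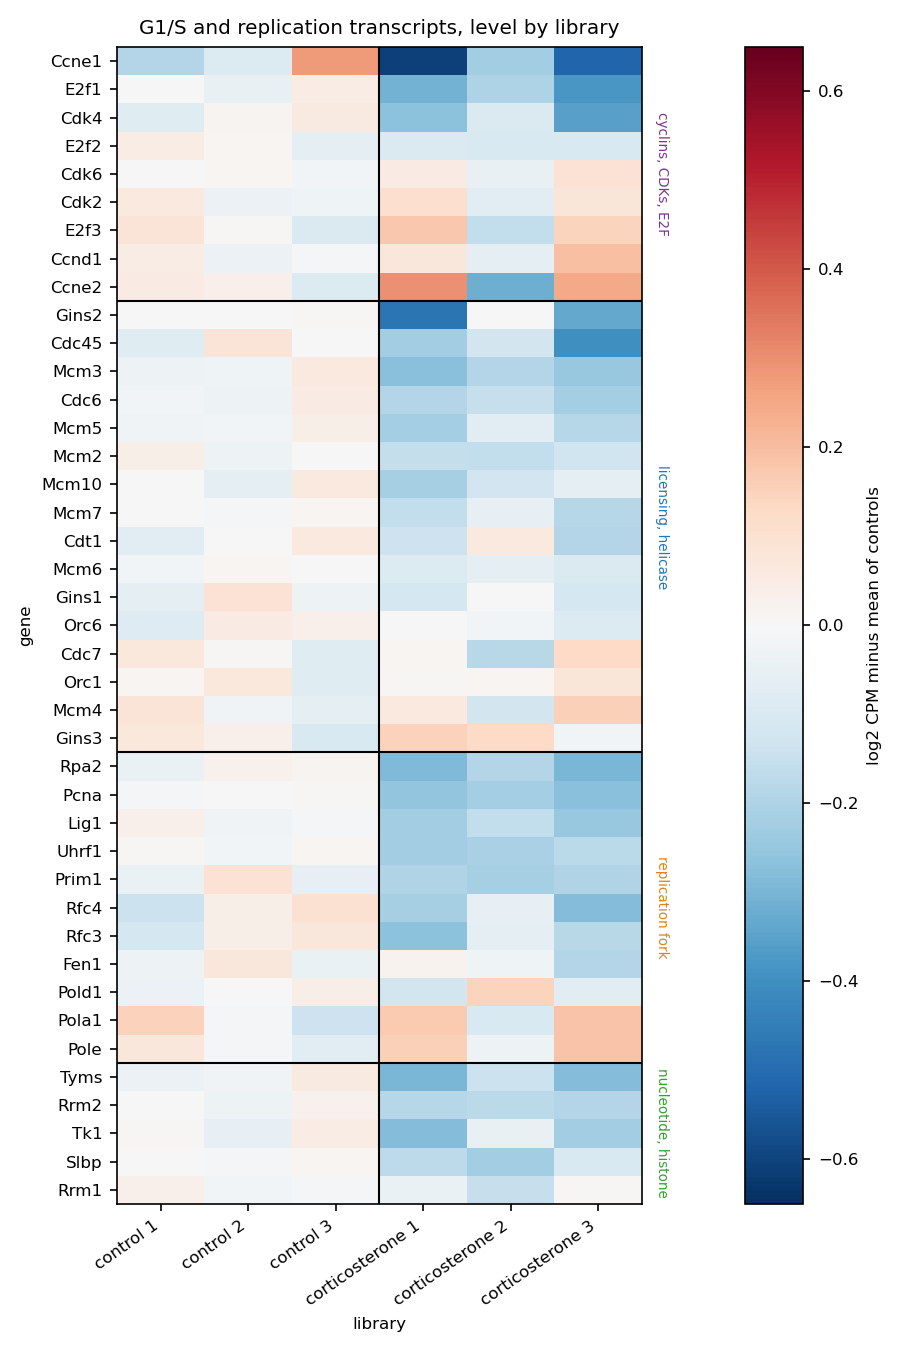
Heat map of the 41 genes (rows, grouped by role) in the 6 libraries (columns). Colour gives log2 CPM minus the mean of the 3 controls, blue for lower and red for higher. In 20 of the 41 rows all 3 corticosterone libraries lie below all 3 controls, while 9 rows, among them Ccne2, Pola1 and Pole, are red in corticosterone replicates 1 and 3 and blue in replicate 2.

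**Figure D2:**
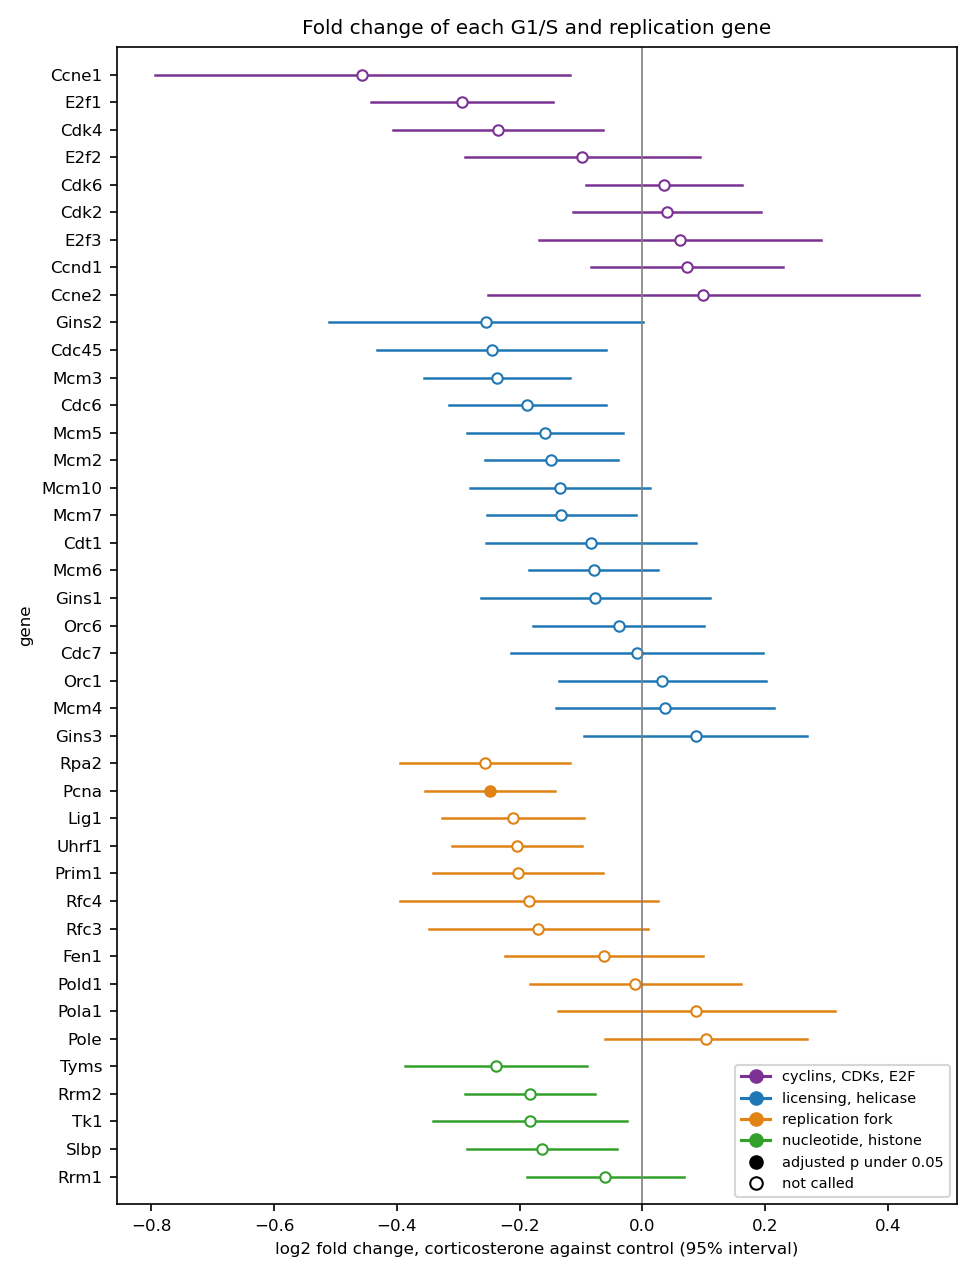
Log2 fold change of each gene, corticosterone against control, from edgeR, with its 95% interval, coloured by role. Pcna is the 1 gene called, and the intervals of Ccne1 and Ccne2 are the widest.

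Depth was alike in the 6 libraries, at 62.2 to 66.2 M counts, and the treatment was visible in known glucocorticoid targets. Per1, a clock gene, rose from 18.4, 20.5 and 20.1 CPM (counts scaled to library depth) in controls to 62.6, 71.1 and 65.3 with corticosterone. The 5 epithelial markers were present in every library, with summed levels of 2904 to 3017 CPM in controls and 2700 to 3178 with corticosterone. The 6 macrophage markers summed to 189 to 208 against 184 to 262 CPM, most of it Lyz2, and the 6 fibroblast markers to 103 to 109 against 100.1 to 103 CPM, with Lum at 0 in 5 libraries. The 4 endothelial markers summed to 1.37 to 2.01 CPM in controls and 0.700 to 0.843 with corticosterone. Among the treated libraries corticosterone replicate 2 differed most: its mean over 20 ribosomal protein genes was 0.12 above the control mean (log2), while replicates 1 and 3 were at -0.14 and -0.23. The mitochondrial share of counts was 3.93, 3.91 and 4.01% in controls and 3.52, 3.80 and 3.30% with corticosterone, without overlap. The part of these measures in the results below, the lower levels of the 41 genes among them, was not tested. Without replicate 2, of the 41 replication genes 20 were called lower and 2 higher, where 10.0% and 10.5% of all tested genes were called. Leaving out any other library left 0 called, where 0.157 to 0.612% of all tested genes were called lower and 0.336 to 0.729% higher.

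Cyclins, kinases and E2F factors divided into genes that were lower in every treated library and genes whose treated libraries lay on both sides of the controls. Of the 9, 0 passed the test, and 3 reached an unadjusted edgeR p under 0.05 in the lower direction (8.80% of all tested genes). In 4 (Ccne1, Cdk4, E2f1 and E2f2), all below 0, all treated libraries lay below all controls, against 11.6% of all tested genes. The other 5 overlapped and lay above 0. In these 5 corticosterone replicate 2 lay below every control. The median of the 9 was 0.03, which turned to -0.09 when the trend of each library on transcript length was taken out and to -0.01 without corticosterone replicate 1. E2f1, the activator of replication genes, measured 72.9, 70.8 and 75.6 CPM in controls and 59.0, 63.6 and 56.2 with corticosterone. The groups did not overlap, and the log2 fold change was -0.29 (SE 0.0647, 95% interval -0.44 to -0.15, edgeR adjusted p = 0.0549). Its relative E2f2 was lower in level, at 12.03, 11.8 and 11.2 CPM against 10.9, 10.9 and 10.9, and E2f3 measured 39.5, 37.4 and 34.9 against 42.0, 33.3 and 41.2. The E2f2 interval, from -0.29 to 0.09, and the E2f3 interval, from -0.17 to 0.29, both held 0.

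Ccne1, which encodes cyclin E1, had the lowest log2 fold change of the 41 genes. It measured 15.8, 16.9 and 21.8 CPM in controls and 11.8, 15.4 and 12.6 with corticosterone (18.2 ± 3.21 and 13.3 ± 1.87, SD, n = 3). Control replicate 3 stood above the rest, and the highest treated library lay just under the lowest control. The log2 fold change of -0.46 (95% interval -0.79 to -0.12) did not pass (edgeR adjusted p = 0.167), and without control replicate 3 it was -0.30. It was called lower without corticosterone replicate 2 (-0.58, edgeR adjusted p = 0.0192) and by DESeq2 (adjusted p = 0.0429). Ccne2, for cyclin E2, went the other way in 2 of 3 treated libraries, at 19.9, 19.6 and 18.0 CPM in controls and 23.6, 15.4 and 22.8 with corticosterone. Its log2 fold change was 0.10 (95% interval -0.25 to 0.45). Replicate 2 was the lowest of all 6 libraries, and without it Ccne2 was called higher (0.27, edgeR adjusted p = 0.0408).

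Cdk4 encodes the kinase partner of D-type cyclins. It measured 563, 603 and 620.5 CPM in controls and 495, 557 and 466 with corticosterone, a log2 fold change of -0.24 (SE 0.0743, edgeR adjusted p = 0.158). The groups were separated by a few CPM between control 1 and corticosterone 2. Its counterpart Cdk6 measured 114, 115 and 112 CPM against 118, 109.6 and 121, with a log2 fold change of 0.03 and an interval from -0.09 to 0.16. Cdk2, the partner of cyclin E, was at 0.04 with an interval from -0.11 to 0.19. Ccnd1, for cyclin D1, measured 1079.9, 1017 and 1036 CPM in controls and 1098, 1003 and 1195 with corticosterone, with overlapping groups and a log2 fold change of 0.07 (95% interval -0.08 to 0.23). Per length, Ccnd1 was the most abundant of the 41 genes, at 196 ± 6.42 FPKM in controls (SD, n = 3), followed by Cdk4 at 162 ± 7.36 and Pcna at 129 ± 0.160, while E2f2 was the lowest at 2.11 ± 0.0882.

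Licensing genes and helicase subunits were lower in most cases, without a call. Of 16 genes, 13 had a log2 fold change below 0 (median -0.11), beside 50.0% of all tested genes, and 0 passed the adjusted test. In 8 all treated libraries lay below all controls (11.6% of all tested genes). An unadjusted edgeR p under 0.05 in the lower direction was reached by 6 (8.80%). The MCM ring is loaded as a hexamer of 6 different subunits. Mcm3 measured 259, 260.5 and 277 CPM in controls and 220.3, 232 and 224 with corticosterone, means of 266 ± 10.02 and 225 ± 6.26 (SD, n = 3). Its groups stood well apart, with a log2 fold change of -0.24 (SE 0.0521, 95% interval -0.36 to -0.12, edgeR adjusted p = 0.0549).

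The other ring subunits differed less between the groups. Mcm5 measured 272, 274 and 285 CPM against 238, 263 and 244 (log2 fold change -0.16), and Mcm2 measured 180.3, 172 and 175 against 158, 158 and 161 (-0.15). Mcm7 measured 278, 276 and 281 CPM against 249, 268 and 245 (-0.13), and Mcm6 measured 293, 299 and 297 against 278, 285 and 278 (-0.08). In these 4 the treated libraries lay below all controls, and their edgeR adjusted p-values ran from 0.161 to 0.430. Mcm4 was the exception, at 159, 147 and 144 CPM in controls and 157, 138 and 167 with corticosterone, with a log2 fold change of 0.04 and an interval from -0.14 to 0.21. The fold changes of the 6 subunits were not compared with each other by a test. Per length, Mcm3, Mcm5, Mcm6 and Mcm7 had like control levels, of 55.6 to 62.6 FPKM, with Mcm4 at 37.0 and Mcm2 at 22.3 FPKM.

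Of the factors that load the ring, Cdc6 was lower in all 3 treated libraries, at 65.5, 64.8 and 68.7 CPM against 58.1, 59.8 and 56.9 (log2 fold change -0.19, SE 0.0561, edgeR adjusted p = 0.140). Cdt1, its partner in loading, measured 183, 192 and 200.1 CPM against 174, 200.3 and 168, so that replicate 2 lay at the level of the highest control. Its log2 fold change of -0.08 (edgeR adjusted p = 0.619) became -0.16 without replicate 2, and it was then called lower (adjusted p = 0.0425). Orc1 and Orc6, subunits of the origin recognition complex, had log2 fold changes of 0.03 and -0.04, each with an interval that held 0. Mcm10, which helps start the helicase, measured 67.6, 64.6 and 70.4 CPM against 58.2, 61.8 and 64.5 (-0.13), a difference of under 1 CPM between the lowest control and the highest treated library. Cdc7, the kinase that fires licensed origins, was at -0.01.

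Cdc45, the helicase cofactor, measured 80.3, 90.0 and 84.7 CPM in controls and 72.5, 78.1 and 64.4 with corticosterone (log2 fold change -0.25, SE 0.0814, edgeR adjusted p = 0.177). Among the GINS subunits, Gins2 turned on 1 library. It measured 61.7, 61.8 and 62.1 CPM in controls, and 44.5, 61.9 and 49.1 with corticosterone. Replicate 2 was at the control level while the other 2 treated libraries were lower, and the log2 fold change of -0.26 (95% interval -0.51 to 0.00, edgeR adjusted p = 0.294) became -0.40 without replicate 2 (adjusted p = 0.00252). Gins1 was at -0.08 and Gins3 at 0.09, both with intervals that held 0. The exons of Gins2 share 2758 bases with an exon of Gse1 on the opposite strand, and the sources used here do not give the strandedness of counting, so reads of the pair may not be separable.

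The fork genes held the 1 call. Pcna (ENSMUSG00000027342, chromosome 2, 132249162 to 132253314, minus strand), the sliding clamp that holds polymerases on DNA, measured 348, 348 and 351 CPM in controls and 292, 300.1 and 289 with corticosterone. The control libraries lay within 4 CPM of each other, and the highest treated library was well under the lowest control. The means were 349 ± 1.97 and 294 ± 5.55 CPM (SD, n = 3), a fall of 15.8% and a log2 fold change of -0.25 (SE 0.0462, 95% interval -0.35 to -0.14, edgeR adjusted p = 0.0293). Leaving out any of control 1, 2 or 3 or corticosterone 1 or 3 ended the call, with adjusted p-values of 0.102 to 0.190 and log2 fold changes of -0.25 to -0.23. Without corticosterone 2 it was 0.00208. With the replicate number as a block the adjusted p was 0.135. A pseudogene copy, Pcna-ps2, had at most 2.30% of the counts of Pcna.

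A ligase, a methylation factor and a single-strand binding subunit lay close to Pcna in size. Uhrf1, which brings maintenance methylation to new DNA, measured 219.8, 216 and 221 CPM against 187, 189 and 194 (log2 fold change -0.20, SE 0.0461, edgeR adjusted p = 0.0594). Rpa2, a subunit of the single-strand binding protein, measured 56.3, 59.3 and 58.8 CPM against 47.6, 51.0 and 47.4 (-0.26, SE 0.0604, edgeR adjusted p = 0.0686). Lig1, the ligase that joins Okazaki fragments, measured 144, 138 and 139 CPM against 119.98, 126 and 119 (-0.21, SE 0.0504, edgeR adjusted p = 0.0721). In all 3 the groups did not overlap. These 3, with E2f1, Mcm3 and Rrm2, were the 6 genes with an adjusted p between 0.05 and 0.1. Over all 17283 tested genes, 889 had an edgeR adjusted p under 0.1 and 487 under 0.05, in either direction.

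The polymerase genes did not share one direction. Prim1, the primase that starts each strand, measured 69.6, 76.7 and 69.2 CPM against 62.7, 61.9 and 62.7 (log2 fold change -0.20, SE 0.0607, edgeR adjusted p = 0.140), without overlap. Pola1, the catalytic subunit that extends its primers, measured 85.4, 76.3 and 70.2 CPM against 86.9, 72.0 and 87.7 (0.09). Pole, for the leading strand polymerase, measured 111, 105 and 101 CPM against 118, 103 and 119.997 (0.10), and Pold1, for the lagging strand polymerase, was at -0.01. For Pola1 and Pole, corticosterone 1 and 3 lay above all controls and replicate 2 did not, and without replicate 2 Pole was called higher (0.17, edgeR adjusted p = 0.0466). Rfc3 and Rfc4, of the clamp loader, were at -0.17 and -0.18 with overlapping groups, and Fen1, the flap nuclease, was at -0.06. Over the 11 fork genes the median was -0.18, and 9 lay below 0 (50.0% of all tested genes). In 5 all treated libraries lay below all controls (11.6% of all tested genes). An unadjusted edgeR p under 0.05 in the lower direction was reached by 5 (8.80%).

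All 5 genes of nucleotide and histone supply lay below 0, with a median of -0.18. By edgeR 0 passed the adjusted test and 4 reached an unadjusted p under 0.05 in the lower direction (8.80% of all tested genes). Rrm2, the S phase subunit of ribonucleotide reductase, measured 180.3, 176 and 184 CPM against 158, 159.6 and 158 (log2 fold change -0.18, SE 0.0463, edgeR adjusted p = 0.0844), while the large subunit Rrm1 measured 267, 258 and 259 against 254, 236 and 263 (-0.06) with overlap. Tyms, the thymidylate synthase, measured 71.7, 72.4 and 76.7 CPM against 59.8, 66.8 and 60.5 (-0.24, SE 0.0648, edgeR adjusted p = 0.108), without overlap. Tk1, the salvage kinase of thymidine, measured 181, 174 and 187 CPM against 148, 174 and 154 (-0.18, edgeR adjusted p = 0.233). Its replicate 2 reached the lowest control, and without that library it was called lower (-0.25, adjusted p = 0.00651). Slbp, which binds the stem loop of histone mRNA, measured 117, 116 and 118 CPM against 104, 99.96 and 109 (-0.16, SE 0.0531, edgeR adjusted p = 0.167).

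**Figure D3:**
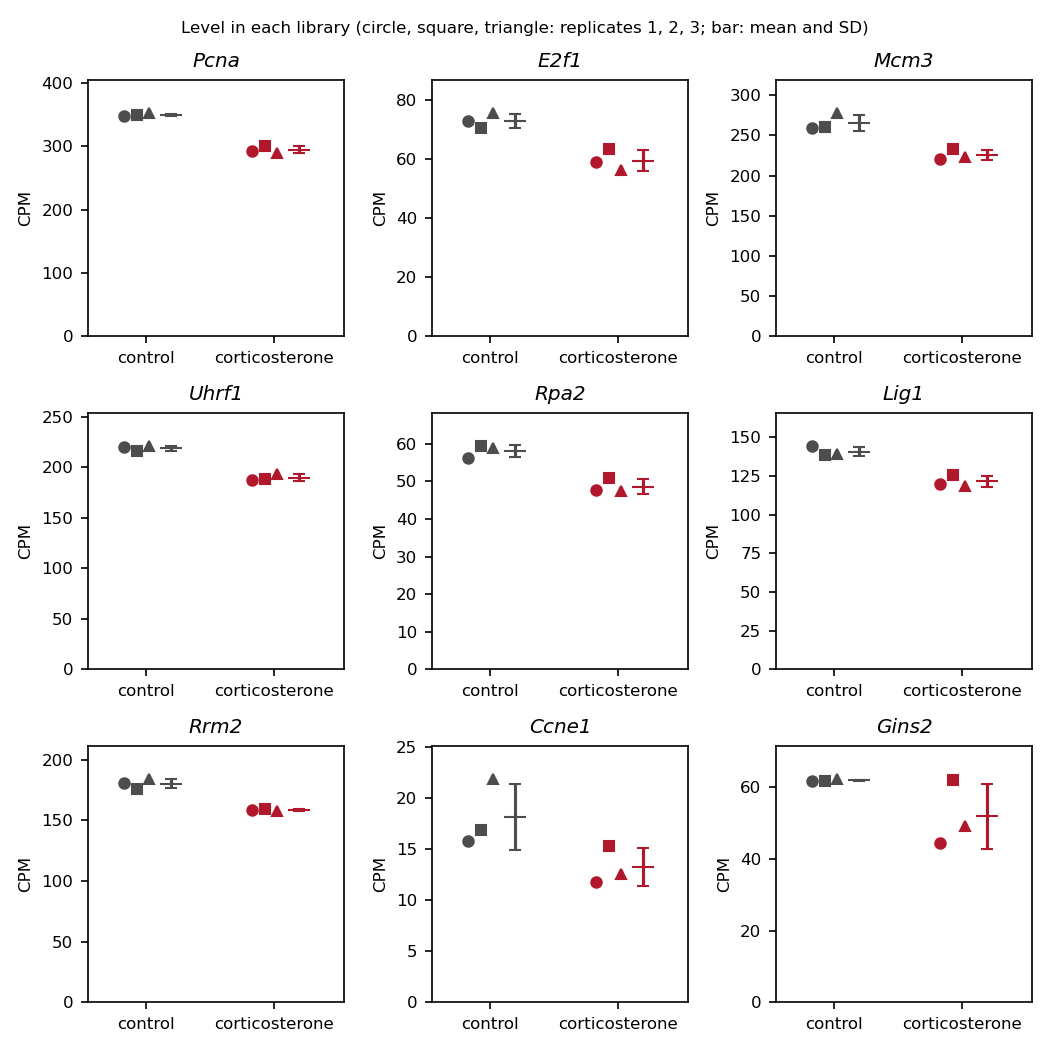
CPM of 9 genes in each library, on axes from 0, with circles, squares and triangles for replicates 1, 2 and 3 and a bar for the mean and SD of each group (n = 3). The groups are separate in the first 8 panels, narrowly so for Ccne1, and in Gins2 corticosterone replicate 2 lies at the control level of 61.9 CPM.

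Corticosterone replicate 2 differed from the other treated libraries in which genes were low, more than in how low they were on average. The mean of the 41 genes relative to controls was -0.12, -0.10 and -0.12 (log2) in corticosterone 1, 2 and 3, against -0.01 to 0.00 in controls. The genes took 0.617 to 0.623% of all counts in controls and 0.573 to 0.591% with corticosterone. In replicate 2, 36 of 41 genes lay below their control mean, and in replicates 1 and 3 it was 29 and 30. Cyclins, kinases and E2F factors averaged -0.14 in replicate 2 and -0.06 in each of the others, whereas licensing genes averaged -0.06 in replicate 2 and -0.13 and -0.12 in replicates 1 and 3.

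There were 9 genes above their control mean in replicates 1 and 3 and below it in replicate 2, namely Ccnd1, Ccne2, Cdk2, Cdk6, E2f3, Mcm4, Cdc7, Pola1 and Pole. The controls also varied in these 9 genes. All 9 lay above their control mean in control 1 (0.0037 to 0.15) and below it in control 3 (-0.13 to -0.012). Transcript length moved with the pattern of the treated libraries, and was not compared with the levels in single controls. Across the 41 genes, Spearman's rho between the level relative to controls and the longest annotated transcript was 0.37 in replicate 1, 0.00 in replicate 2 and 0.54 in replicate 3, while rho for the log2 fold change was 0.40 across the 41 genes and 0.19 across all 17258 tested genes with a length. These are descriptions across genes, which share the libraries. With the length trend of each library taken out, 6 of the 41 genes were called lower (Pcna, E2f1, Mcm3, Rpa2, Lig1 and Uhrf1) and 0 higher, where 2.73% and 2.56% of all tested genes were called. The median of the 41 stayed at -0.13, and Pcna was at -0.19 (adjusted p = 0.0499).

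**Figure D4:**
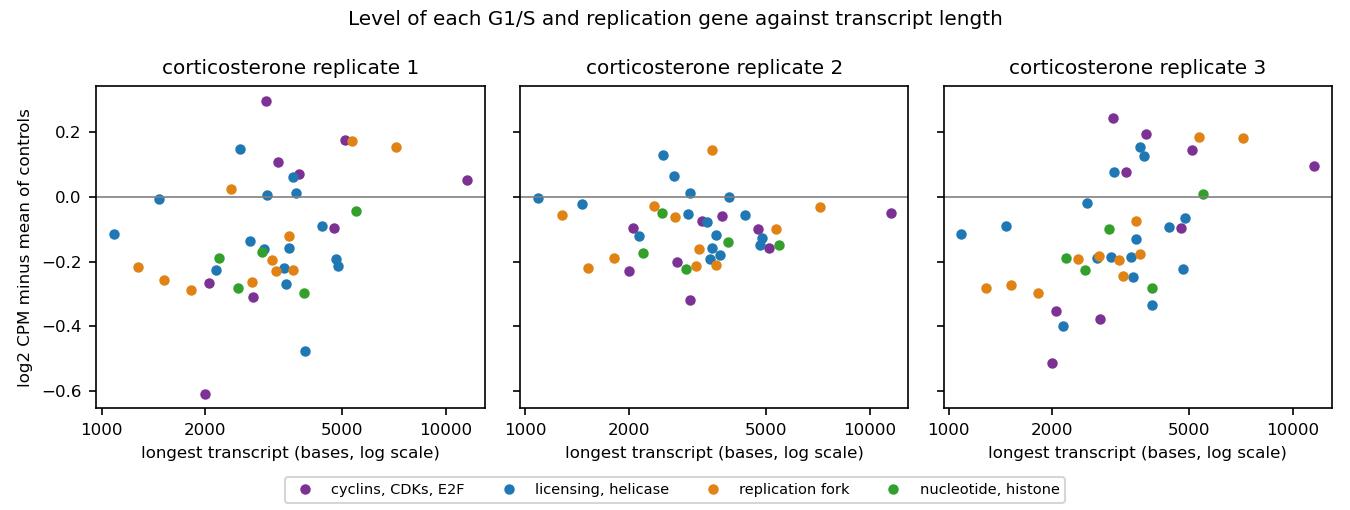
Log2 CPM of each gene minus its control mean, against the length of its longest transcript on a log axis, 1 panel for each corticosterone library, with points coloured by role. Longer transcripts tend to lie higher in replicates 1 and 3 (rho 0.37 and 0.54) and not in replicate 2 (0.00).

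In a wider list of 75 further genes of the same pathway, 2 fell and 2 rose by the edgeR test, beside 1.46% and 1.35% of all tested genes. Counts this small are near the background and are given for the genes, not for the list. Of the 75, 41 lay below 0 and 34 above, and the median was -0.02. Cdkn2c, the p18 inhibitor of CDK4 and CDK6, measured 103, 100.1 and 99.4 CPM in controls and 81.9, 83.7 and 83.1 with corticosterone (log2 fold change -0.28, SE 0.0493, edgeR adjusted p = 0.0238). Pclaf, a factor that binds PCNA, measured 97.4, 94.8 and 97.2 CPM against 76.5, 82.3 and 80.2 (-0.28, SE 0.0532, edgeR adjusted p = 0.0346). Both fell without overlap of the groups.

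The 2 genes that rose belong to licensing and origin firing. Orc2, a subunit of the origin recognition complex, measured 69.4, 66.2 and 68.1 CPM against 82.2, 79.0 and 87.1 (log2 fold change 0.29, SE 0.0584, edgeR adjusted p = 0.0435). Mtbp, a partner of the firing factor Ticrr, measured 114, 113 and 114 CPM against 133, 131 and 135 (0.23, SE 0.0468, edgeR adjusted p = 0.0442). In neither did the groups overlap. Exons of both genes overlap exons on the opposite strand. Leaving out any of control 1, 2 or 3 or corticosterone 1 or 3 ended each of these 4 calls, with edgeR adjusted p-values of 0.0667 to 0.148 for Cdkn2c, 0.0882 to 0.183 for Pclaf, 0.117 to 0.234 for Orc2 and 0.116 to 0.240 for Mtbp.

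Within the wider list, 24 of 27 further fork genes lay below 0, with a median of -0.08. Of the 10 further nucleotide genes 7 lay below 0 (median -0.08), with Dut, the dUTPase, at -0.31 (edgeR adjusted p = 0.0987). Further licensing genes lay below 0 in 4 of 15 (median 0.04) and further cyclin, RB and E2F genes in 5 of 16 (median 0.05). Ccnd2, for cyclin D2, measured 71.9, 64.6 and 68.8 CPM against 92.6, 72.2 and 99.0 (0.36, edgeR adjusted p = 0.148). Of the 7 CDK inhibitors, 6 lay above 0 and 0 rose by edgeR or by DESeq2. An unadjusted p under 0.05 in the higher direction was reached by 2 in edgeR (8.23% of all tested genes). The low level gene Cdkn1c was at 1.11 (edgeR adjusted p = 0.277) with overlapping groups. It measured 0.378, 0.460 and 0.552 CPM in controls and 0.732, 0.521 and 1.74 with corticosterone, so that corticosterone 3 stood above the rest.

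Genes of G2 and mitosis were taken as a comparison within the cycle. Of 28 such genes 0 were called by edgeR, where 1.46% of all tested genes were called lower and 1.35% higher. An unadjusted p under 0.05 was reached by 2 in the lower direction (8.80% of all tested genes) and by 3 in the higher (8.23%). Of the 28, 12 lay below 0 and 16 above, and the median was 0.01. DESeq2 called 1 lower and 1 higher, where 4.45% and 4.21% of the genes it tested were called. Without corticosterone replicate 2 edgeR called 4 lower and 2 higher, where 10.0% and 10.5% of all tested genes were called. The mean of the 28 relative to controls was 0.02, 0.02 and 0.00 in corticosterone 1, 2 and 3. The 41 G1/S and replication genes were at -0.12, -0.10 and -0.12. The difference between the lists was not tested, and both were chosen with earlier results of these data known. The 3 with the lowest p were Hmmr at 0.22, Top2a at -0.14 and Cdk1 at -0.20 (edgeR adjusted p of 0.137, 0.154 and 0.161).

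**Figure D5:**
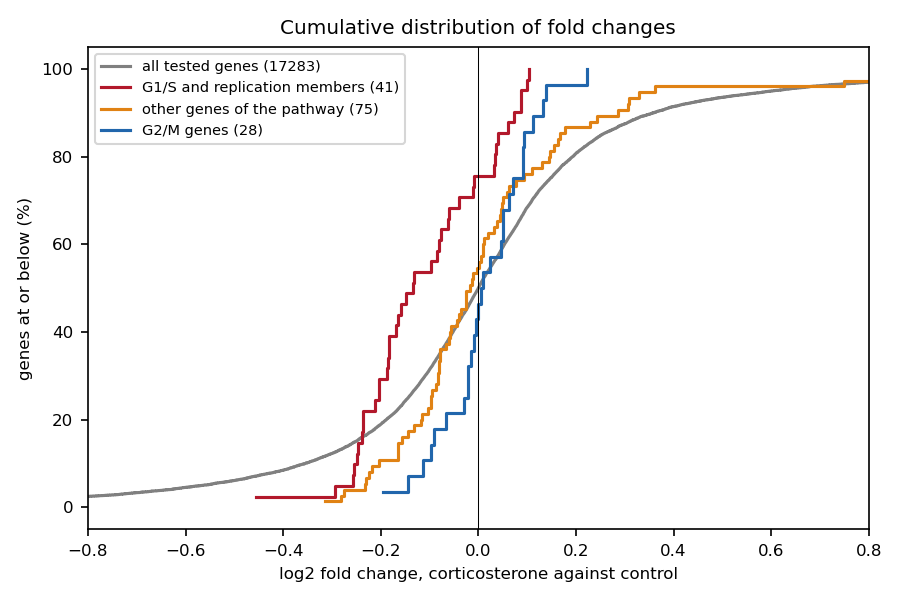
Cumulative share of genes (percent, vertical axis) at or below each log2 fold change (horizontal axis, shown from -0.8 to 0.8) for the 41 genes, the 75 further pathway genes, the 28 G2/M genes and all 17283 tested genes. The curve of the 41 crosses 0 at 75.6%, that of all tested genes at 50.0%, and the curve of the 41 ends at 0.10.

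DESeq2, fitted to the same counts, called 11 of the 41 genes lower (26.8%, against 4.45% of the genes it tested) and 0 higher (against 4.21%). They were 2 of the cyclin group, 2 licensing, 5 fork and 2 nucleotide genes, and all 11 were among the 20 without overlap. The 20 genes called lower without corticosterone 2 included 16 of those 20. They were Ccne1, Cdk4, E2f1, Cdc6, Cdt1, Mcm2, Mcm3, Mcm5, Mcm7, Cdc45, Gins2, Pcna, Prim1, Rfc3, Rpa2, Lig1, Uhrf1, Rrm2, Tyms and Tk1. Overlap, DESeq2 and the fit without corticosterone 2 all use the same counts, so genes shared between them are not separate support.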

How the data were processed

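RNA was sequenced from 3 control and 3 corticosterone libraries of 4T1 cells, and groups follow the treatment label. For extraction, the labels' protocols name TRIzol as well as a column kit. The deposited table gives, per the file headers, a whole-number count and an FPKM value per gene and library. The sources used here do not give the authors' aligner, counter, strandedness or read layout. The submitters' processing notes name GRCh38, but the identifiers are mouse, and gene coordinates are those of the table.

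The 41 genes were matched by exact symbol. Members, lists and roles were chosen with earlier results of these data known. Counts were TMM scaled, filtered (filterByExpr, minimum count 10, minimum total 15), and tested by treatment group with the quasi-likelihood test of edgeR 4.0.16 under R 4.3.3, adjusting p-values by Benjamini-Hochberg over 17283 genes. CPM uses the scaled library sizes, and SE is the log2 fold change over the root of F. FPKM compares levels between genes only. All 41 genes could be named. Of the wider lists, those called and the 2 of lowest p in each were eligible, and of G2/M the 3 of lowest p. Alternatives were DESeq2 1.42.0, limma 3.58.1 on log2(FPKM + 1), other scalings, filters and thresholds, libraries left out, and the replicate block. A length trend correction was added after seeing the data. Same-numbered libraries hardly deviated together (r 0.011, 0.038 and -0.088), and they were not paired. Scripts were tested on simulated data. Exons of 16 of the 41 genes overlap exons on the opposite strand (GENCODE M21).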

Additional observations from a re-analysis of the deposited data

How the results depend on the processing

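The median of the 41 genes kept its sign under every alternative run, from -0.15 to -0.12, and the number of calls did not. Genes called lower, 1 in the reported fit, numbered 11 with DESeq2, 3 with library totals (1.54% of all tested genes), 0 with no low count filter (0.352%), 5 with a mean FPKM of at least 5 (3.06%, E2f2 fell under it), 4 with limma at either pseudocount (2.43%), 6 with the length trend out, 0 at an adjusted p under 0.01 and 7 under 0.1. With libraries left out in turn they ran from 0 to 20 lower and 0 to 2 higher. The wider list's 2 lower calls became 4 with DESeq2 (4.45% of the genes it tested) and 1 with no filter in edgeR (0.352%). They became 4 with the length trend out (2.73%), 0 under 0.01 and 4 under 0.1. Its 2 higher calls became 0 with no filter in edgeR or limma (0.398% and 0.480%) and 0 under 0.01. With libraries left out its calls ran from 0 to 13 lower and 0 to 11 higher. The 13 and 11 came without corticosterone 2, where 10.0% and 10.5% of all tested genes were called. Over all genes, 487 calls became 1293 with DESeq2, 211 and 260 with no filter in edgeR and limma, 913 with the length trend out, 144 under 0.01, 889 under 0.1, and 88 to 3670 with libraries left out. Leaving out a library also leaves fewer samples for the test. Otherwise the cause was not tested.

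The replicate block left 0 of the 41 genes called lower, 0 and 0 of the wider list lower and higher, and 237 calls over all genes. The labels do not say that the numbers pair the libraries.

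Of the 41 genes 32 kept their sign throughout and 9 did not, all with a reported log2 fold change between -0.06 and 0.10. Cdc7 turned to 0.00083 with library totals, Cdk6 to -0.0917 and Orc6 to 0.0250 with the length trend out. With libraries left out the log2 fold change ran from -0.0111 to 0.270 for Ccne2, -0.00027 to 0.158 for E2f3, -0.0072 to 0.0656 for Orc1, -0.0227 to 0.108 for Mcm4, -0.0787 to 0.0684 for Cdc7, -0.0980 to 0.0399 for Pold1 and -0.109 to 0.0011 for Fen1. Each of the 41 genes had at least 685 counts in every library, and the biological coefficient of variation over all tested genes was 0.135.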

Other observations

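Replication-dependent histone genes are made in S phase and their mRNA is processed with the help of Slbp. Of 9 genes of the histone clusters in the table, listed after the table was seen, 6 were tested, 5 of them had a log2 fold change below 0, and 0 were called by edgeR, with 0 at an unadjusted p under 0.05. In 2 of the 6, named after their values were seen, all treated libraries lay below all controls, against 11.6% of all tested genes. They were Hist1h2br, with a log2 fold change of -0.56 (95% interval -1.15 to 0.02), and Hist1h2bq, at -0.39 (95% interval -0.98 to 0.20). Both intervals held 0, and a count this small is given for the genes, not for the group. No gene of this group had more than 66 counts in a library.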
